A study of Mus musculus with 22 samples.

Results

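Here 40 mouse genes of amino acid supply that are linked to the transcription factor ATF4 were followed through the responses of mouse embryonic palatal mesenchyme (MEPM) cells to growth factors and kinase inhibitors. They were chosen by name, but with earlier results of these data known, so they are not a blind choice to set against all entries. They comprise 8 regulators and stress genes, 7 enzymes of serine synthesis and one-carbon metabolism, 5 enzymes of asparagine, cysteine and proline metabolism, 8 amino acid transporters and 12 cytosolic aminoacyl-tRNA synthetases. All 40 matched an entry of the expression table, which holds 23286 entries in all, and 39 reached an expression level above 1 FPKM (the fragments mapped to a gene, divided by its exon length and by the mapped total of the library) in at least 1 condition. The exception was Cbs, which encodes cystathionine β-synthase and stayed at or below 0.884 FPKM.

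ATF4 protein is made when eIF2α is phosphorylated, by GCN2 in amino acid shortage or by PERK in endoplasmic reticulum stress, and also when growth factors activate mTORC1. It binds C/EBP-ATF response elements, often together with a C/EBP partner, and drives genes that import amino acids, synthesize them and charge them onto tRNA, along with stress genes such as Ddit3 and Trib3. PI3K lies upstream of AKT and mTORC1, and LY294002 is known to block mTOR as well as PI3K. ATF4 protein and its phosphorylated upstream kinases were not measured here, so all values below are of mRNA.

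The cells were primary MEPMs from E13.5 embryos, a culture of palatal mesenchyme in which each set of replicates came from independent litters, and had been serum starved overnight in 0.1% FBS. They received either 30 ng/mL PDGFA or 50 ng/mL FGF1 with 1 μg/mL heparin. The ligands were given alone for 4 hr (3 samples each), or for 1 or 4 hr with the MEK inhibitor PD325901 (PD) at 1 μM or with the PI3K inhibitor LY294002 (LY) at 10 μM (2 samples in each of 8 conditions). The inhibitors were added 30 min before the ligand, so the times given are those of the ligand. Ligand alone at 1 hr and unstimulated cells were not analysed here, and no condition with an inhibitor but no ligand was used. The table gives 1 value per gene and condition, pooled over the samples, so there is no spread between replicates, no test and no p-value, and the depth behind each value is unknown. The call of higher or lower needed a 1.5-fold difference, among entries above 1 FPKM in either compared condition, and each count stands beside the percent of all such entries called in that direction.

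The labelled cell type was seen in its markers. All 12 mesenchyme markers, among them Osr2, Pax9 and Pdgfra, exceeded 1 FPKM, with summed levels of 3941 to 5883 FPKM. Most of that sum came from Col1a2 (1614 to 2626 FPKM) and Vim (1600 to 2617 FPKM). Osr2 stood at 2.55 to 6.51 FPKM and Pdgfra at 2.57 to 9.47 FPKM. Of 6 epithelial markers 1 exceeded 1 FPKM, and the summed levels of epithelial, endothelial, blood and muscle markers were at most 9.31, 6.11, 1.75 and 5.74 FPKM. Only 2 of the 4 blood markers had an entry. Of 4 neural and glial markers, all exceeded 1 FPKM, at 75.5 to 151 FPKM in sum. The highest were Stmn2 (40.7 to 76.4 FPKM) and Tubb3 (9.66 to 73.2 FPKM), above Osr2 and Pdgfra. The part of any of these in the results was not tested.

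The member with the highest level in any condition was Nupr1, at 455 FPKM, followed by Ddit3 at 346, Atf4 at 279.6, Gars at 251.6 and Atf5 at 244 FPKM. At the other end, Slc7a11 reached 4.41 FPKM and Shmt1 5.64 FPKM, and the remaining 37 expressed members exceeded 10 FPKM in every condition.

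The response element was present in the start regions of many members. In the 300-base windows that RefSeq gives for the GRCm38.p6 build, from 250 bases before the start site to 50 after it, the sequence TGATGNAA on either strand was found for 12 of the 31 members with a window (38.7%), against 4.51% of 27025 genes with a window. The element was found for 5 of 8 tRNA synthetases (Aars, Gars, Iars, Tars and Yars), for 3 of 8 regulators (Chac1, Nupr1 and Trib3), for Asns and Pycr1, and for Slc1a4 and Slc7a11, but for none of 6 enzymes of serine and one-carbon metabolism. A match is a description of the letters in this window, not a shown binding site. The 4 windows below belong to members described in full further on, namely a stress gene that was higher with LY, a stress gene that was lower, a transporter with 2 matches, and a synthetase. Each is written 5′ to 3′ on the strand of its gene, which was the minus strand for all 4, and the capitals mark the matches.
Nupr1, chr7:126625421-126625720: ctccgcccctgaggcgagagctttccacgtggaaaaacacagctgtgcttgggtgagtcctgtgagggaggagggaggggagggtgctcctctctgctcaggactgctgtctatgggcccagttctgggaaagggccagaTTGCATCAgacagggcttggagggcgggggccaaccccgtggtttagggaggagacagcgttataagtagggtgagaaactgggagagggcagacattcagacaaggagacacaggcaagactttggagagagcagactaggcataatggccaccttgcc
Trib3, chr2:152344011-152344310: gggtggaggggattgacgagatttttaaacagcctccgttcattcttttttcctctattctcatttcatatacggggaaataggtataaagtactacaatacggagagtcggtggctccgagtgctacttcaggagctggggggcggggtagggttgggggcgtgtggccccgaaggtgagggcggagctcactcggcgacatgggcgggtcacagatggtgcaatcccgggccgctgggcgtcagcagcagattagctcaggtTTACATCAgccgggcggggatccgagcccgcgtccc
Slc7a11, chr3:50443564-50443863: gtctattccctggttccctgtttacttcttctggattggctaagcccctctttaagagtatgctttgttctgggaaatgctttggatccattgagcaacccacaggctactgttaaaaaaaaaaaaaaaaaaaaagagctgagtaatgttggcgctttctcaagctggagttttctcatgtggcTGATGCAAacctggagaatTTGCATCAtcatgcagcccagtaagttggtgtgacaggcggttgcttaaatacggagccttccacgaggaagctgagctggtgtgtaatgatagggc
Tars, chr15:11399609-11399908: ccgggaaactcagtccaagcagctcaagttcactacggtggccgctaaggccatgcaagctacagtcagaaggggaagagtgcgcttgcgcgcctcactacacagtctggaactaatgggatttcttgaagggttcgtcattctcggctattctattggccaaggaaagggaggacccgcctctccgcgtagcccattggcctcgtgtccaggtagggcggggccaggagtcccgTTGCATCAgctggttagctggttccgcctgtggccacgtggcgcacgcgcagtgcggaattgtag
In Nupr1 the match began 110 bases before the start site, in Tars 15 bases before it, and in Trib3 at transcribed base 15, counting the start site as 1. The matches of Slc7a11 began 66 and 47 bases before the start site and lay on opposite strands. No window was at hand for Wars, Cars, Lars, Nars, Slc7a3, Slc7a5, Slc1a5, Aldh1l2 and Cth.

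**Figure D1:**
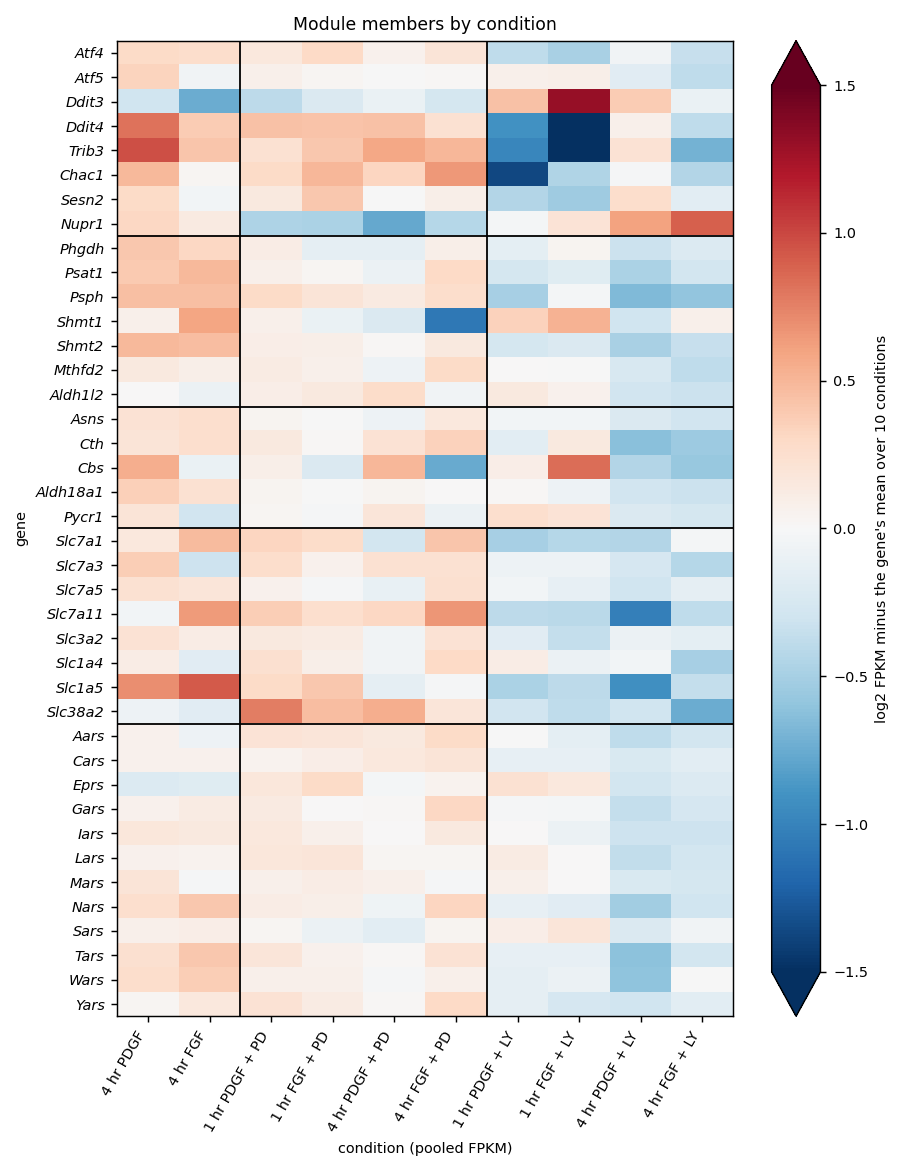
Heat map of the 40 members (rows, in blocks by role from regulators at the top to tRNA synthetases at the bottom) in the 10 conditions (columns, with ligand alone, PD and LY separated by lines). Color gives log2 FPKM minus the gene's mean over the 10 conditions, from blue (lower) to red (higher), and the 4 LY columns hold the lowest value of 35 of the 39 expressed members, against 43.9% of all expressed entries.

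The 4 LY conditions held the lowest of the 10 values for 35 of the 39 expressed members, against 43.9% of entries. The 4 hr PDGF + LY condition alone held it for 19 members, against 11.9% of entries. For 19 of the 39 expressed members all 4 LY values lay below all 4 PD values, against 11.3% of the 12298 expressed entries. These 19 were the regulators Atf4, Ddit4, Trib3 and Chac1, the serine pathway enzymes Psat1, Psph and Shmt2, the transporters Slc7a3, Slc7a11, Slc3a2, Slc1a5 and Slc38a2, and 7 synthetases (Aars, Cars, Gars, Iars, Nars, Tars and Yars). The reverse order, with all LY values above all PD values, was seen for Ddit3 and Nupr1, or 2 of 39 members against 10.9% of entries. This contrast of inhibitors does not use the ligand-alone conditions.

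Atf4 itself was lower in every LY condition than in any other condition. Its level was 276 FPKM with PDGF and 271 FPKM with FGF alone. With PD (given throughout in the order 1 hr PDGF, 1 hr FGF, 4 hr PDGF, 4 hr FGF) it was 254, 279.6, 236 and 259 FPKM, and with LY, in the same order, 174, 161, 218 and 179 FPKM. The PD values overlapped those with ligand alone, and the LY values did not overlap either. LY over ligand alone at 4 hr was 1.52-fold lower with FGF, just past the size rule, and 1.26-fold lower with PDGF. Atf5, a related factor that is likewise translated under eIF2α phosphorylation, ranged from 149 to 244 FPKM and was called in none of the 17 comparisons.

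Trib3 and Ddit4 had the deepest troughs among the stress genes. Trib3 encodes a pseudokinase that binds ATF4 and AKT and damps ATF4 activity. It was at 66.1 FPKM with PDGF and 45.1 FPKM with FGF alone, at 39.5, 44.6, 50.5 and 47.8 FPKM with PD, and at 17.1, 11.0, 39.3 and 20.7 FPKM with LY. All LY values were below all PD values, although the 4 hr PDGF + LY value nearly met the 1 hr PDGF + PD value. Ddit4 encodes REDD1, an inhibitor of mTORC1. It was at 84.7 and 62.9 FPKM with PDGF and FGF alone, at 65.5, 64.9, 65.4 and 56.5 FPKM with PD, and at 25.8, 17.2, 50.8 and 37.1 FPKM with LY. The 2 lowest values of each gene were those of LY at 1 hr. Chac1, which encodes an enzyme that degrades glutathione, ranged from 17.04 FPKM in 1 hr PDGF + LY to 68.6 FPKM in 4 hr FGF + PD. Sesn2, which encodes a leucine-binding brake on mTORC1, ranged from 33.5 to 64.0 FPKM, lowest in 1 hr FGF + LY.

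Ddit3 and Nupr1 were the members with all LY values above all PD values. Ddit3 encodes CHOP, a C/EBP-family factor of prolonged stress. It was at 113 and 83.9 FPKM with PDGF and FGF alone, at 107, 121, 131 and 116 FPKM with PD, and at 190.5, 346, 182 and 131 FPKM with LY. Its highest value was therefore in 1 hr FGF + LY, while the lowest LY value, that of 4 hr FGF, barely exceeded the highest PD value. Nupr1 encodes a small stress-induced nuclear protein. It was at 304 and 268 FPKM with PDGF and FGF alone, at 177, 175, 143 and 182 FPKM with PD, and at 239, 282, 372 and 455 FPKM with LY. For Nupr1 the PD values formed the low group, below ligand alone as well as below LY. Exons of Ddit3 overlap those of the synthetase gene Mars on the opposite strand over 68 bases, 3.97% of the exon bases of Ddit3, and since strand was not stated to be used in counting, reads there cannot be assigned. Mars ranged only from 42.0 to 57.7 FPKM.

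**Figure D2:**
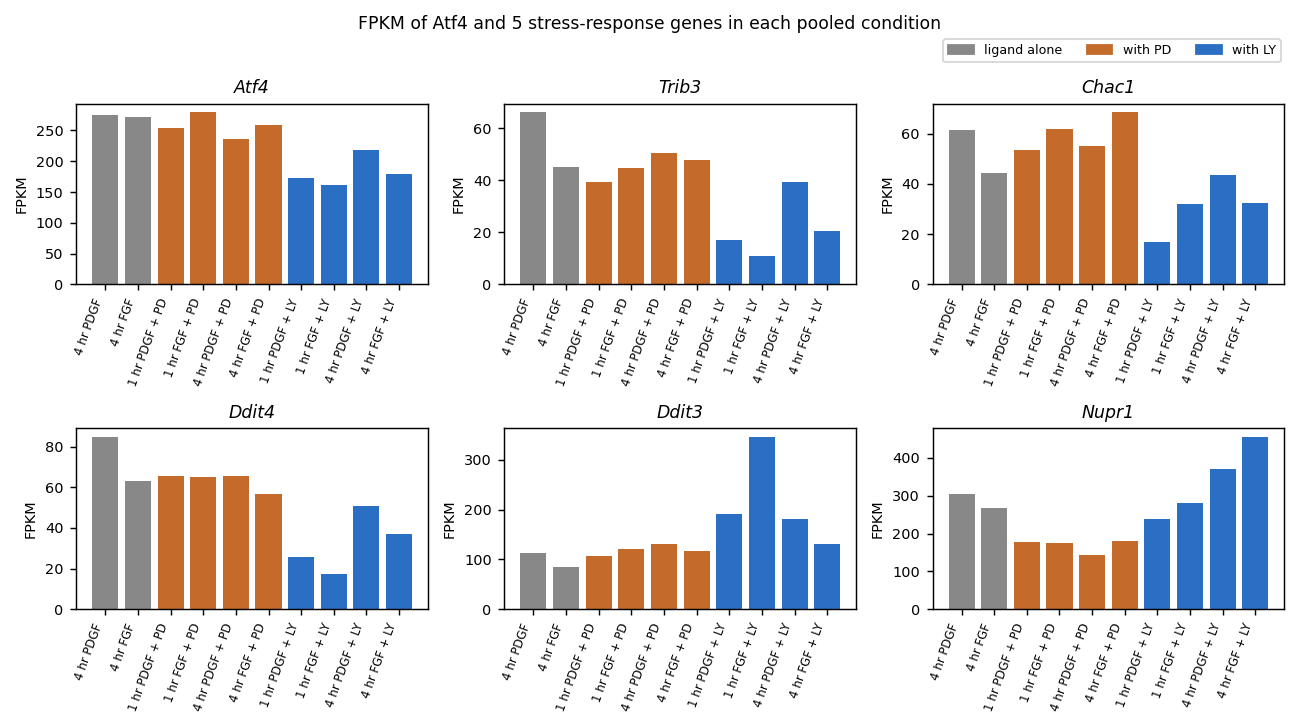
Bars give the pooled FPKM (vertical axes, from 0) of Atf4, Trib3, Chac1, Ddit4, Ddit3 and Nupr1 in each of the 10 conditions, with ligand alone in gray, PD in orange and LY in blue. The LY bars are below the PD bars for the first 4 genes and above them for Ddit3 and Nupr1, and the 1 hr FGF + LY bar of Ddit3 reaches 346 FPKM.

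Of the 3 enzymes that build serine from a glycolytic intermediate, Psat1 and Psph were called lower with LY over ligand alone at 4 hr with both ligands, and Phgdh with PDGF. Psat1, the transaminase of the pathway, was at 198 and 212 FPKM with PDGF and FGF alone, at 159, 154, 142 and 186 FPKM with PD, and at 126, 133, 108 and 124 FPKM with LY. Psph, the phosphatase that completes the pathway, was at 38.7 and 38.5 FPKM with PDGF and FGF alone, at 34.3, 32.3, 30.9 and 33.9 FPKM with PD, and at 19.95, 27.6, 17.8 and 18.7 FPKM with LY. For both genes the 3 kinds of condition formed 3 separate steps, with ligand alone highest and LY lowest. Phgdh, the dehydrogenase that opens the pathway, was at 71.9 and 67.0 FPKM with PDGF and FGF alone, at 58.6, 49.4, 49.5 and 57.8 FPKM with PD, and at 48.9, 55.7, 43.4 and 47.0 FPKM with LY. Its PD and LY values overlapped, and 56.3% of the 31-base words of its transcripts also occur in other genes, so its level is uncertain.

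Shmt2, the mitochondrial enzyme that turns serine into glycine and a one-carbon unit, was at 83.7 and 82.1 FPKM with PDGF and FGF alone, at 63.7, 63.2, 60.3 and 65.7 FPKM with PD, and at 49.7, 51.3, 42.3 and 47.0 FPKM with LY. It showed the same 3 steps as Psat1 and Psph. Its cytosolic counterpart Shmt1 was far less abundant, at 1.79 to 5.64 FPKM, and was lowest in 4 hr FGF + PD. Mthfd2, the mitochondrial enzyme that passes the one-carbon unit on, ranged from 62.2 to 98.9 FPKM and Aldh1l2 from 32.3 to 48.9 FPKM. Of the Aldh1l2 exon bases, 14.1% overlap a gene on the opposite strand.

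Among enzymes of asparagine, cysteine and proline, Cth showed a late change. Cth encodes cystathionine γ-lyase, which releases cysteine. It was at 19.2 and 20.1 FPKM with PDGF and FGF alone, at 18.7, 17.05, 19.5 and 21.3 FPKM with PD, and at 15.1, 18.7, 10.9 and 11.6 FPKM with LY. Both low values were those of LY at 4 hr. Aldh18a1, which encodes the enzyme that starts proline synthesis, was at 77.1 and 70.9 FPKM with PDGF and FGF alone, at 62.2, 59.99, 62.1 and 60.8 FPKM with PD, and at 61.0, 57.1, 49.3 and 48.2 FPKM with LY. Here, too, the 4 hr LY values were the lowest, and the 1 hr LY values lay close to those with PD. Asns, asparagine synthetase and a classical ATF4 target, ranged from 101 FPKM in 4 hr FGF + LY to 147 FPKM in 4 hr FGF and was called in no comparison, and Pycr1, of proline synthesis, ranged from 10.0 to 14.5 FPKM.

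Of the 8 transporters, 4 were called lower with LY than with PD at 1 hr with each ligand, against 12.0% (FGF) and 8.86% (PDGF) of entries. At 4 hr, 4 (FGF) and 3 (PDGF) were called lower, against 12.6% and 12.8% of entries. Slc1a5, the glutamine exchanger, was at 32.8 and 38.3 FPKM with PDGF and FGF alone, at 24.6, 26.7, 18.4 and 19.97 FPKM with PD, and at 14.6, 15.4, 10.7 and 15.8 FPKM with LY. Its levels with both inhibitors were below those with ligand alone, those with LY more so. Slc7a11, the cystine-glutamate exchanger, was at 2.71 and 4.35 FPKM with PDGF and FGF alone, at 3.61, 3.31, 3.46 and 4.41 FPKM with PD, and at 2.12, 2.11, 1.37 and 2.14 FPKM with LY. It was the transporter of lowest level, and its LY values lay below all 6 others. Slc7a1, a carrier of arginine and lysine, was at 30.5 and 38.0 FPKM with PDGF and FGF alone, at 34.2, 33.2, 22.6 and 36.3 FPKM with PD, and at 19.4, 20.3, 20.2 and 26.8 FPKM with LY. The 4 hr PDGF + PD value fell within the LY range. Slc7a3, another cationic amino acid carrier, was at 30.0 and 18.7 FPKM with PDGF and FGF alone, at 27.9, 24.3, 27.3 and 27.4 FPKM with PD, and at 21.997, 22.1, 19.6 and 17.2 FPKM with LY. It was the only member called lower with FGF than with PDGF when the ligands were given alone. Slc38a2, which encodes the starvation-induced transporter SNAT2, ranged from 44.9 FPKM in 4 hr FGF + LY to 128 FPKM in 1 hr PDGF + PD. Its PD values were above those with ligand alone as well as above those with LY. The heavy chain gene Slc3a2 ranged from 86.9 to 129.6 FPKM, its partner Slc7a5 from 104 to 150.03 FPKM, and Slc1a4 from 36.3 to 62.9 FPKM.

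The 12 cytosolic tRNA synthetases differed by less, but all of them had ratios below 0 for LY at 4 hr, against ligand alone and against PD. The shares of entries below 0 were 49.4% (FGF) and 52.4% (PDGF) against ligand alone, and 49.9% and 54.3% against PD. Nars, which charges asparagine, was at 176 and 196 FPKM with PDGF and FGF alone, at 159.6, 156, 141 and 185 FPKM with PD, and at 136, 132, 103 and 120.2 FPKM with LY. Tars, for threonine, was at 94.6 and 106 FPKM with PDGF and FGF alone, at 90.9, 83.9, 81.1 and 93.4 FPKM with PD, and at 73.8, 73.3, 52.4 and 66.3 FPKM with LY. In both genes the LY values lay below all others, with the lowest in 4 hr PDGF + LY. Wars, for tryptophan, was at 43.4 and 46.7 FPKM with PDGF and FGF alone, at 38.2, 38.2, 35.9 and 38.3 FPKM with PD, and at 33.0, 34.0, 23.9 and 36.2 FPKM with LY. The low value of Wars stood in 1 LY condition, that of PDGF at 4 hr. The other 9 synthetases were called in no comparison, and their highest value exceeded their lowest by 1.32-fold (Sars) to 1.60-fold (Aars). Part of the exon sequence of Aars (14.3%) is shared with a neighboring gene, and 14.7% of the words of Iars occur in other genes.

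At 4 hr, LY set against ligand alone asks which transcripts differed in ligand-treated cells when LY was present. With FGF, 11 of 39 members were lower by 1.5-fold or more, against 12.7% of entries, and 2 were higher (Ddit3 and Nupr1), against 11.4% of entries. With PDGF, 15 were lower, against 14.5% of entries, and 1 was higher (Ddit3), against 9.84% of entries. The median log2 ratio of the members was -0.45 with FGF and -0.45 with PDGF, while that of all entries was 0.01 and -0.03. The log2 ratio was below 0 for 36 of the 39 members with FGF, against 49.4% of entries, and for 37 with PDGF, against 52.4%, including all 12 synthetases with each ligand. Of the members called lower, 10 were called with both ligands, which is 10 of the 11 with FGF and 10 of the 15 with PDGF. These were Ddit4, Trib3, Psat1, Psph, Shmt2, Cth, Slc7a11, Slc1a5, Nars and Tars. The share of all entries called lower with both ligands was not computed, here or in the contrasts below. Such overlaps between ligands therefore cannot be read as particular to the members. Atf4 was called with FGF only, and Phgdh, Aldh18a1, Slc7a1, Slc7a3 and Wars with PDGF only, and whether these differed between ligands was not tested.

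The largest of these ratios was that of Slc1a5, which was 2.42-fold lower with FGF and 3.06-fold lower with PDGF. Psph was 2.06-fold and 2.17-fold lower, Slc7a11 2.03-fold and 1.98-fold lower, and Trib3 2.18-fold and 1.68-fold lower. The median log2 ratio by role was -0.51 (FGF) and -0.73 (PDGF) for serine and one-carbon enzymes, -0.55 and -0.54 for enzymes of asparagine, cysteine and proline, -0.42 and -0.56 for transporters, -0.40 and -0.42 for regulators, and -0.32 and -0.42 for synthetases. Ligand alone also stood apart from both inhibitors: 9 members (Phgdh, Psat1, Psph, Shmt2, Asns, Aldh18a1, Slc1a5, Tars and Wars) were higher with both ligands alone than in all 8 inhibitor conditions, against 11.7% of entries, and none was lower, against 9.25% of entries. Whether ligand-alone and inhibitor samples were prepared and sequenced together is not given in the sources used here, and the part of such a difference was not tested.

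The PDGF result depended on scaling. Of 10 reference genes, 8 exceeded 1 FPKM, and in PDGF cells their median log2 ratio of LY over ligand alone was -0.47, from -0.65 for Actb to 0.31 for B2m. Relative to that median, the member median became 0.027, with the opposite sign, and 2 members were past 1.5-fold lower in place of 15. With FGF the reference genes had a median of -0.06. Gapdh and Ppia, also on the reference list, were listed at no more than 0.676 and 0.692 FPKM, and were left out of the median.

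**Figure D3:**
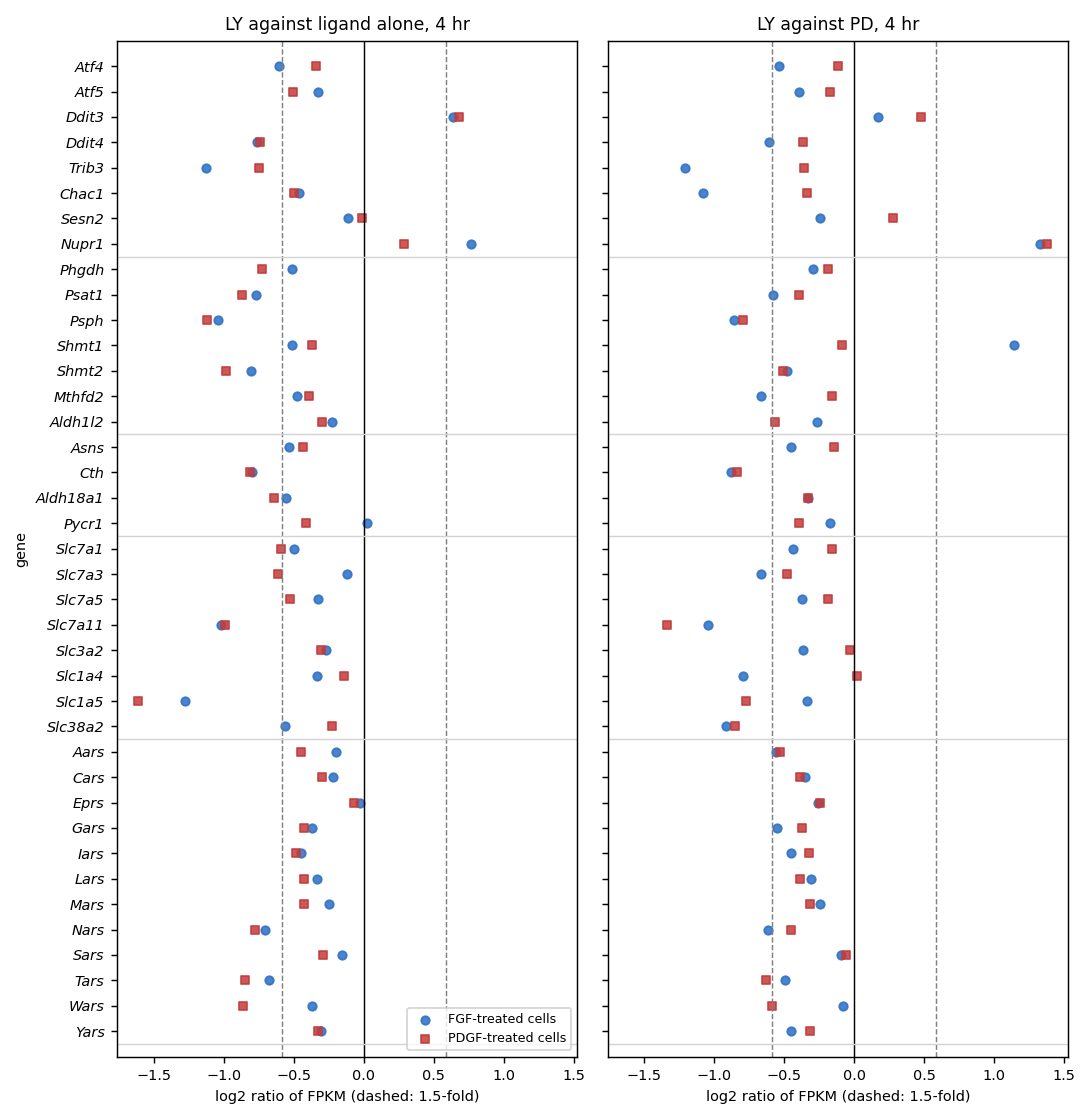
Points give the log2 ratio of FPKM (horizontal axes) of each of the 39 expressed members (rows) for LY over ligand alone (left) and LY over PD (right) at 4 hr, in FGF-treated cells (blue circles) and PDGF-treated cells (red squares), with dashed lines at 1.5-fold. Most points lie left of 0, with medians of -0.45 and -0.45 on the left and -0.45 and -0.34 on the right for FGF and PDGF, and Nupr1 lies farthest to the right against PD.

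Set against PD at 4 hr, LY gave fewer lower calls with PDGF but the same overall direction. With FGF, 11 members were lower, against 12.6% of entries, and 2 were higher (Nupr1 and Shmt1), against 11.6%. With PDGF, 7 were lower, against 12.8%, and 1 was higher (Nupr1), against 6.97%. The median log2 ratio of the members was -0.45 with FGF and -0.34 with PDGF, against 0.00 and -0.04 for all entries. Cth, Psph, Slc38a2 and Slc7a11 were lower with both ligands. All 12 synthetases had ratios below 0 with both, against 49.9% (FGF) and 54.3% (PDGF) of entries. Nupr1 was 2.51-fold higher with FGF and 2.60-fold higher with PDGF. Slc7a11 was 2.06-fold and 2.53-fold lower, and Psph 1.81-fold and 1.73-fold lower. Trib3 and Chac1 were 2.32-fold and 2.12-fold lower with FGF, and 1.29-fold and 1.26-fold lower with PDGF. The reference genes had medians of -0.14 (FGF) and -0.19 (PDGF) in these contrasts, and relative to them the member medians were -0.31 and -0.15, with 7 and 4 members called lower.

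At 1 hr most of the members called lower with LY than with PD were regulators or transporters. With FGF, 9 members were lower with LY than with PD, against 12.0% of entries, and 3 were higher (Ddit3, Nupr1 and Shmt1), against 7.78%. With PDGF, 9 were lower, against 8.86%, and 1 was higher (Ddit3), against 6.21%. Of these, 8 were lower with both ligands (8 of 9 with each), namely the regulators Chac1, Ddit4, Sesn2 and Trib3 and the transporters Slc1a5, Slc38a2, Slc7a1 and Slc7a11. The share of all entries lower with both ligands was not computed. Trib3 was 4.04-fold lower with FGF and 2.31-fold lower with PDGF, Ddit4 3.77-fold and 2.54-fold lower, and Chac1 1.93-fold and 3.14-fold lower. Ddit3 was 2.86-fold higher with FGF and 1.79-fold higher with PDGF. Atf4 was 1.73-fold lower with FGF and 1.46-fold lower with PDGF. The only biosynthetic enzyme called lower was Psph, 1.72-fold with PDGF, and no synthetase was called with either ligand.

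By role, the gap between the inhibitors was not the same at both times. The median log2 ratio of LY over PD for the 8 regulators was -0.86 (FGF) and -0.57 (PDGF) at 1 hr, and -0.47 and -0.14 at 4 hr. For the 12 synthetases it was -0.17 and -0.17 at 1 hr, and -0.40 and -0.38 at 4 hr. Transporters stood at -0.56 and -0.55 at 1 hr, and at -0.55 and -0.33 at 4 hr. Serine and one-carbon enzymes stood at -0.09 and -0.26 at 1 hr and at -0.48 and -0.39 at 4 hr, and enzymes of asparagine, cysteine and proline at 0.05 and -0.05 and then at -0.39 and -0.36. Relative to the reference genes, the synthetase median with FGF was -0.26 at both times, so that its shift with FGF was not seen under that scaling, and with PDGF it was -0.069 at 1 hr and -0.19 at 4 hr. With pooled values these shifts have no error.

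**Figure D4:**
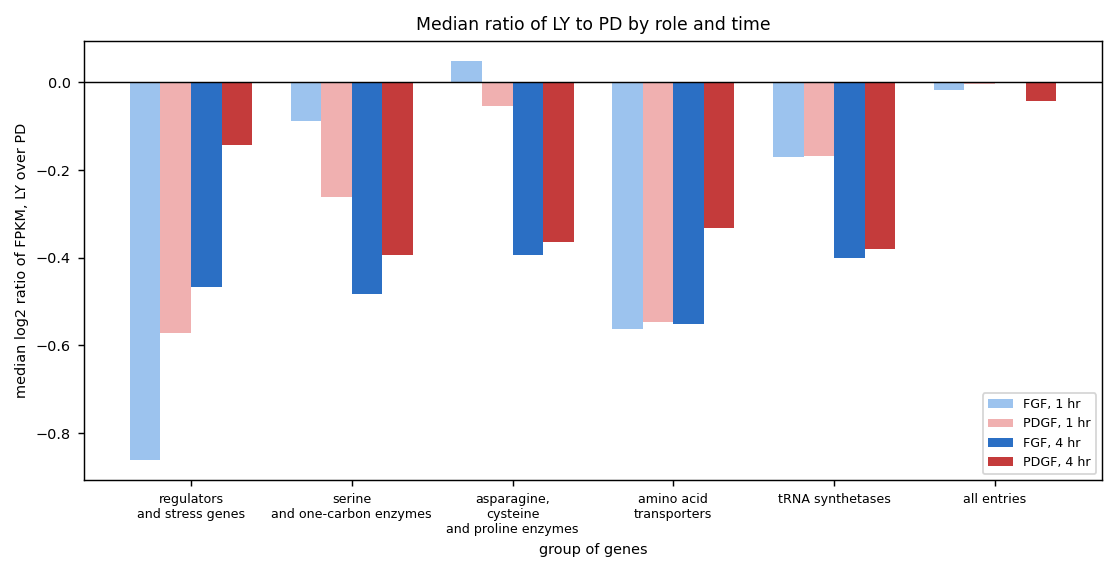
Bars give the median log2 ratio of FPKM, LY over PD (vertical axis), for the 5 roles and for all entries above 1 FPKM (horizontal axis), with FGF in blue and PDGF in red, 1 hr in pale and 4 hr in dark shades. The bars of the regulators reach -0.86 (FGF) and -0.57 (PDGF) at 1 hr, and those of the synthetases -0.40 and -0.38 at 4 hr.

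Within LY, 4 hr was also set against 1 hr. With FGF, Ddit4, Trib3 and Nupr1 were higher at 4 hr, against 11.4% of entries, and Ddit3 and Cth were lower, against 12.2%. Ddit4 was 2.15-fold higher and Ddit3 2.65-fold lower. With PDGF, Ddit4, Trib3, Chac1, Sesn2 and Nupr1 were higher at 4 hr, against 4.91%, and Shmt1 and Slc7a11 were lower, against 5.51%. Chac1 was 2.55-fold higher and Trib3 2.30-fold higher. All 12 synthetases had a lower level at 4 hr than at 1 hr with PDGF + LY, by at most 1.42-fold (Eprs), against 5888 of 11661 entries. With PDGF + PD, 11 of the 12 were also lower at 4 hr, against 5950 of 11811 entries. The synthetase medians were -0.36 with LY and -0.15 with PD, beside reference gene medians of -0.16 and -0.09. Of the 8 other cytosolic synthetases, 7 were lower at 4 hr with PDGF + LY and 6 with PDGF + PD. Within PD few members were called: with FGF, 1 was lower (Shmt1, against 9.92% of entries) and none was higher (against 4.44%), and with PDGF, 1 was lower (Slc7a1, against 3.63%) and none was higher (against 8.27%).

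MEK inhibition gave few calls among the members. With FGF, PD over ligand alone at 4 hr gave 1 higher member (Chac1, 1.54-fold), against 11.5% of entries, and 2 lower members (Shmt1 and Slc1a5), against 11.6%. With PDGF, 1 was higher (Slc38a2, 1.54-fold), against 11.9%, and 2 were lower (Nupr1 and Slc1a5), against 9.57%. Slc1a5 was thus lower with PD with both ligands, by 1.92-fold with FGF and 1.78-fold with PDGF, and Nupr1 was 2.12-fold lower with PDGF. Shmt1 was 3.15-fold lower with FGF, from 5.64 to 1.79 FPKM. The median log2 ratio of the members was 0.02 with FGF and -0.23 with PDGF, against -0.003 and -0.0003 for all entries. The ratio was below 0 for 18 of 39 members with FGF, against 5868 of 11642 entries. With PDGF it was below 0 for 31 of 39 members, against 5944 of 11879 entries. The reference genes had a median of -0.22 in that PDGF contrast.

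The ligands alone differed little in these genes at 4 hr. FGF over PDGF gave 1 higher member (Slc7a11, 1.60-fold), against 4.37% of entries, and 1 lower member (Slc7a3, 1.60-fold), against 6.58%. The 8 regulators all had log2 ratios below 0, against 6220 of 11598 entries, with a median of -0.41, while the synthetases had a median of 0.03. The reference genes had a median of -0.07. Ddit4, Trib3 and Chac1 were 1.35-fold, 1.47-fold and 1.38-fold lower with FGF, none past the size rule.

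Under the inhibitors the ligands differed in few members. With PD at 1 hr no member was higher with FGF (against 3.76% of entries) and none was lower (against 1.65%). With LY at 1 hr, Ddit3 and Chac1 were higher with FGF (against 4.14%) and Trib3 was lower (against 2.76%). Ddit3 differed by 1.82-fold and Chac1 by 1.88-fold. With PD at 4 hr, Slc7a1 was higher with FGF (against 6.20%) and Shmt1 was lower (against 13.2%). With LY at 4 hr, Wars and Slc7a11 were higher with FGF (against 8.95%) and Trib3 was lower (against 9.51%), by 1.90-fold. Trib3 was thus lower with FGF than with PDGF under LY at both times.

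Other genes of the same supply routes, from added lists, were measured beside the module. Of the 8 other cytosolic synthetases none was called in the 4 comparisons of LY with PD. The shares of entries were 8.86% to 12.8% lower and 6.21% to 11.6% higher. Of the 12 member synthetases, 1 (FGF) and 2 (PDGF) were lower at 4 hr and 0 at 1 hr, so the counts do not set the lists apart. The median log2 ratio of the 8 others at 4 hr was -0.01 with FGF and -0.29 with PDGF, against -0.40 and -0.38 for the 12 members. At 1 hr it was 0.08 with FGF and 0.10 with PDGF. Against ligand alone the 8 had medians of -0.35 (FGF) and -0.50 (PDGF), beside -0.32 and -0.42 for the members. With FGF, 1 of the 8 was lower (Farsb, 1.58-fold) and 1 was higher (Qars, for glutamine, from 33.1 to 63.2 FPKM), and with PDGF, 3 were lower (Farsb, Farsa and Vars) and none was higher, beside the shares of entries given for these contrasts. TGATGNAA was found for 0 of 5 of them with a window, and for 0 of 14 mitochondrial synthetases. The 17 mitochondrial synthetases had medians of 0.11 (FGF) and -0.08 (PDGF) for LY over PD at 4 hr. Of them 4 (Aars2, Sars2, Tars2 and Yars2) were lower with PDGF, against 12.8% of entries, and 0 with FGF, against 12.6%. Against ligand alone, 1 (Nars2) was lower with FGF, against 12.7% of entries, and 4 (Aars2, Lars2, Sars2 and Yars2) with PDGF, against 14.5%. Lars2 was at 390 FPKM with PDGF alone and at 153 to 234 FPKM in all other conditions, so its call rests on that 1 high value.

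Further genes of one-carbon and amino acid metabolism were read in the contrast of LY with ligand alone at 4 hr. Of 10 other one-carbon genes, 4 were lower and 1 was higher (Amt) with each ligand. Mthfd1, which encodes the cytosolic trifunctional folate enzyme, was 2.28-fold lower with FGF and 2.35-fold lower with PDGF, and Mthfd1l and Gcsh were also lower with both. Gcsh was at 54.2 (FGF) and 48.8 FPKM (PDGF) with ligand alone. It was at 35.3 and 32.2 FPKM with LY, and likewise at 34.6 and 33.7 FPKM with PD. Of 12 other amino acid enzymes, 3 were lower and 1 was higher with each ligand. Got1 and Bcat1, transaminases of aspartate and of branched-chain amino acids, were lower with both, and Glul, glutamine synthetase, was 2.71-fold and 2.31-fold higher. Of other amino acid transporters, 4 of 11 were lower with FGF and 4 of 12 with PDGF, with Slc38a1, Slc7a6 and Slc38a4 among them, and Slc1a3, a glutamate transporter, was 2.39-fold and 3.63-fold higher. Slc1a3 was also higher with PD at 4 hr, at 10.6 (FGF) and 35.0 FPKM (PDGF), beside 4.98 and 6.14 FPKM with ligand alone. With PD over FGF alone, 3 of 11 of these transporters were lower and 1 was higher, against 11.6% and 11.5% of entries. With PD over PDGF alone, 0 of 12 were lower and 1 was higher, against 9.57% and 11.9%. Among 10 regulators of mTORC1, Sesn3 was higher with both ligands, by 1.91-fold and 1.76-fold, Nprl2 with FGF and Sesn1 with PDGF, while Rragd was lower with both. Eif2s1, the α subunit of eIF2, was lower by 1.52-fold and 1.60-fold. Of 7 genes known to rise when FOXO factors are released from AKT, 3 were higher with FGF and 5 with PDGF, with Ccng2 at 2.32-fold and 3.00-fold. With PD over ligand alone, 3 of these 7 were likewise higher with FGF, against 11.5% of entries, and 3 with PDGF, against 11.9%. With PD, 0 were lower with FGF (against 11.6%) and 1 with PDGF (against 9.57%). All the counts for LY stand beside 12.7% (FGF) and 14.5% (PDGF) of entries lower and 11.4% and 9.84% higher. Those for LY with PDGF carry the shift of the reference genes given above.

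Among 14 genes of the unfolded protein response, which PERK, IRE1 and ATF6 start in the endoplasmic reticulum, the chaperone gene Hspa5 ranged from 534 to 847 FPKM. The set had medians for LY over PD of 0.17 (FGF) and 0.14 (PDGF) at 1 hr. At 4 hr they were -0.43 with FGF and -0.08 with PDGF. Of the 14 genes, 3 were then lower with FGF (Xbp1, Herpud1 and Manf), against 12.6% of entries, and 1 with PDGF (Xbp1), against 12.8%. Against ligand alone at 4 hr, the set had medians of -0.09 (FGF) and -0.12 (PDGF) with LY, and of 0.19 and -0.06 with PD. The FGF gap between LY and PD at 4 hr thus included levels with PD above those with FGF alone. For LY over ligand alone, Herpud1 and Sdf2l1 were lower with FGF, or 2 of 14 against 12.7% of entries. With PDGF, Xbp1 and Sdf2l1 were lower (2 of 14 against 14.5%) and Dnajb9 was higher (1 of 14 against 9.84%). For LY over PD at 1 hr, Xbp1 was lower with FGF (83.6 FPKM with PD and 52.3 FPKM with LY), or 1 of 14 against 12% of entries. Herpud1 was lower with PDGF, or 1 of 14 against 8.86%. Dnajb9, a target of XBP1, was higher with FGF, or 1 of 14 against 7.78%. It was at 21.96 FPKM in 1 hr FGF + PD and at 49.2 FPKM in 1 hr FGF + LY, the condition in which Ddit3 was highest. The eIF2α kinase genes Eif2ak3 and Eif2ak4, for PERK and GCN2, were called in no LY comparison.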

How the data were processed

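RNA-seq was made from 22 poly-A selected samples in 10 conditions. Per the labels and the paper's methods, the authors used CASAVA for base calls, TopHat for alignment to the mm10 build and Cuffdiff for FPKM, and the versions of these tools are not given in the sources used here. The deposited FPKM values are 1 per entry and condition, pooled over samples, without counts or replicate values, so depth could not be set beside any value. Another 3 columns belong to no sample here and were not used.

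RefSeq identifiers were matched to symbols with the reference tables (22870 of 23286 entries with 1 symbol), and each of the 40 members had 1 entry. The members and lists were chosen with earlier results of these data known. Ratios were taken without a pseudocount or rescaling among entries with FPKM above 1 in either condition, in 17 comparisons, and called at 1.5-fold. All conditions are given for members called with LY over ligand alone or between the ligands at 4 hr, and for Atf4, and from each added list up to 4 genes called in these contrasts could be named by size of change at 5 FPKM or more, and not every such gene is named. Genes named from other contrasts, or below 5 FPKM, were chosen after their values were seen. Alternatives were 2-fold and 1.25-fold rules, pseudocounts of 0.1 and 1, an FPKM minimum of 5, no minimum, rescaling by all entries or by reference genes, and PD as reference. Python 3.11.15, pandas 2.3.3 and NumPy 2.4.6 were used, and start-region sequences are from RefSeq on GRCm38.p6.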

Additional observations from a re-analysis of the deposited data

How the results depend on the processing

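Values are pooled, so no replicate could be left out and no spread was available. No paired analysis was possible because the table holds no replicate columns. Pseudocounts, the minimum of 5 FPKM, no minimum and rescaling by all entries kept the median of the members close to its value in all 17 comparisons. Summing entries changes nothing, since each member has 1. Rescaling by the 8 reference genes turned the median with LY over PDGF alone to 0.027 (2 members lower) and moved that of PD over PDGF alone to -0.013. LY over PD at 4 hr went to -0.31 with FGF (7 lower) and -0.15 with PDGF (4 lower). FGF over PDGF turned to 0.067 with PD at 1 hr, -0.087 with PD at 4 hr and -0.071 with LY at 4 hr, and 4 hr over 1 hr turned to -0.030 for FGF + PD and went to -0.084 for PDGF + LY. With PD as the reference for PDGF + LY the median was -0.34 and 7 were lower. Of 80 called member ratios, 58 fell short of 2-fold, 7 of 1.5-fold with a pseudocount of 1 and 23 after reference rescaling. None changed sign, and none could have done so. The largest median used for rescaling, a log2 ratio of -0.47, was smaller than a 1.5-fold difference, and pseudocounts and minimums keep the sign. Numbers of lower members at 2-fold, each with the share of all entries, were 4 (5.20%) for LY over FGF alone, 2 (5.56%) for LY over PDGF alone, 3 (5.64%) and 1 (5.14%) for LY over PD at 4 hr with FGF and PDGF, and 2 (3.80%) and 4 (3.18%) at 1 hr. Under the milder size rule they were, in that order, 26 (23.9%), 29 (27.5%), 27 (23.6%), 22 (25.5%), 12 (24.7%) and 14 (19.9%).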

Other observations

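Secreted factors linked to ATF4 were read in all 10 conditions. Gdf15, which encodes a stress-induced hormone, was at 11.5 and 11.3 FPKM with PDGF and FGF alone, at 10.7, 37.5, 13.9 and 39.97 FPKM with PD (1 hr PDGF, 1 hr FGF, 4 hr PDGF, 4 hr FGF), and at 2.66, 4.03, 2.97 and 3.95 FPKM with LY in the same order. Its 4 LY values lay below all 6 others, and its PD values were higher with FGF than with PDGF. Stc2, which encodes stanniocalcin 2, was at 16.8 and 21.1 FPKM with PDGF and FGF alone, at 16.8, 19.4, 11.2 and 29.3 FPKM with PD, and at 7.59, 10.1, 7.12 and 11.8 FPKM with LY. Only the 4 hr PDGF + PD value of Stc2 fell within the LY range. Fgf21 was scarce, at no more than 2.93 FPKM, and was lowest in 4 hr FGF + LY, at 0.255 FPKM. Of the 10 ATF4-linked genes outside the module, 4 had all LY values below all PD values, against 11.3% of expressed entries.

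Atf3, a stress and immediate early factor, spanned the widest range of that list. It was at 7.07 and 7.77 FPKM with PDGF and FGF alone, at 41.2, 157, 16.5 and 45.8 FPKM with PD, and at 14.7, 123, 5.94 and 7.32 FPKM with LY. Its 2 highest values were those of FGF with an inhibitor at 1 hr. Glul, glutamine synthetase, was at 5.87 to 7.72 FPKM with PD and 12.9 to 18.4 FPKM with LY. Gapdh and Ppia, which are usually abundant, were listed near 0, and the cause was not tested.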
